A study of Mus musculus with 8 samples.

Results

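The genes described are 10 output and modifier genes of the circadian clock, measured in mouse trigeminal ganglia, the ganglia whose sensory neurons serve the face. They are the PAR bZIP activators Dbp, Tef and Hlf, the repressor Nfil3, the repressors Ciart, Bhlhe40 and Bhlhe41, the nuclear receptors Rora and Rorb, and the kinase gene Csnk1e. Every probe set whose platform annotation gave one of these symbols alone was taken, which yielded 27 probe sets for the 10 genes, out of 45037 probe sets and 18193 genes tested. A gene was represented by its brightest probe set, that is, the one with the highest mean over all arrays.

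The series compared 4 Affymetrix arrays of control mice with 4 arrays of mice transgenic for daDREAM, a mutant form of the calcium-binding transcriptional repressor DREAM (the product of Kcnip3) that was designed to stay active. Both groups are labelled as adult males of the strain C57B/6XCBA, and the titles of all 4 transgenic arrays carry the tag tg16. Mice lived under 12 h of light and 12 h of darkness, with the light coming on at 8 am, and per the labels the experiments fell in the light phase. The labels call the arrays of a group biological replicates. The sources used here do not give the hour at which ganglia were collected, the promoter that drives the transgene, or whether an array holds 1 animal or a pool, so p-values measure the spread between arrays.

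In the mammalian clock, CLOCK and BMAL1 (the product of Arntl) bind E-box elements and activate Per, Cry and Rev-erb (Nr1d) genes, whose products feed back on them. The same E-box drive reaches output genes: DBP, TEF and HLF activate genes through D-box elements, to which NFIL3 binds as a repressor, while RORs activate and REV-ERBs repress genes through ROR response elements, Arntl and Nfil3 among them. CIART (also called CHRONO), BHLHE40 (DEC1) and BHLHE41 (DEC2) repress E-box activation, and casein kinase 1 epsilon, encoded by Csnk1e, phosphorylates PER proteins. Clock genes cycle in peripheral tissues, sensory ganglia included, so their levels depend on the hour of sampling.

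Promoter sequence is shown for the 3 genes that passed the test below and for Tef, the other PAR bZIP gene whose groups did not overlap. Each run is the 250 bases before an annotated gene start, 5′ to 3′ on the gene's strand, from RefSeq on GRCm38.p6; 9 of the 10 genes matched an entry there, with 14 windows, and Bhlhe40 did not. Capitals mark matches to the E-box CACGTG, the related CACGTT, the D-box letters TTATGTAA and TTACGTAA, or the ROR element core AGGTCA, searched on both strands; no matches overlapped in these windows. For Ciart they are 3 E-boxes, for each Tef start 1 E-box, for Nfil3 1 ROR element core, and for Dbp there are none.
Dbp, chr7:45704997-45705246 (+): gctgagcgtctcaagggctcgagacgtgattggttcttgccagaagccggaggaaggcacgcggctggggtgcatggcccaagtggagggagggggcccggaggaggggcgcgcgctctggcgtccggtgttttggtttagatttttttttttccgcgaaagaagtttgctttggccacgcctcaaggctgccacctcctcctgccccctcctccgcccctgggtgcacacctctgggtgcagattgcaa
Ciart, chr3:95882229-95882478 (-): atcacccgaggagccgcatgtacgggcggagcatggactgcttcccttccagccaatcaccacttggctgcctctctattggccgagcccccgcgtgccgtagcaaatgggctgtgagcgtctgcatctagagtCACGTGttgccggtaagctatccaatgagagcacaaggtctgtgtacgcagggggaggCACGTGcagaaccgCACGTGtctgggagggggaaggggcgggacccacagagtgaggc
Tef, chr15:81802423-81802672 (+): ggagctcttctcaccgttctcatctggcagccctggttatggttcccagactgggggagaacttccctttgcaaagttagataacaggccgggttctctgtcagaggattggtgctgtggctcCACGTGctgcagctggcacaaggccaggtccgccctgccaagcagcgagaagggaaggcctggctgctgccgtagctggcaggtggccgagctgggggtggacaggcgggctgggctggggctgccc
Tef, other start, chr15:81811164-81811413 (+): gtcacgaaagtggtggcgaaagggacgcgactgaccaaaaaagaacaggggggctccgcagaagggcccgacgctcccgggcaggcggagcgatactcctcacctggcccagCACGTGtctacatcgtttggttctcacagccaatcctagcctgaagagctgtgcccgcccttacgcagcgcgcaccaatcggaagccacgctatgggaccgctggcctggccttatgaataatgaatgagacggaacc
Nfil3, chr13:52981040-52981289 (-): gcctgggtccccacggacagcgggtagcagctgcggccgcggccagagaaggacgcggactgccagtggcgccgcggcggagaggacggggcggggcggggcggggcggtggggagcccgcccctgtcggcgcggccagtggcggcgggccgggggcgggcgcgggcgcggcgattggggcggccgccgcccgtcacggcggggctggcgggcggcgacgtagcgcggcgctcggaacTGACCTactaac

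The E-boxes of Ciart begin 116, 58 and 44 bases before its start. Among all 32851 windows of the same length, 6.02% held at least 1 E-box and 20 windows held 3 or more. The shares for the other motifs were 3.85% for CACGTT, 0.931% for the D-box letters and 14.02% for the ROR element core. Of the windows not shown, that of Bhlhe41 held 1 E-box and one of Rorb held CACGTT once. The others held no match, among them those of Csnk1e, whose groups also did not overlap. A match describes these letters in this window and is not a measured binding site. Sequence outside the windows was not searched, so no match here does not mean that a gene lacks the element.

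Some arrays departed from their labels or held signal of markers of other tissues. All animals are labelled male, yet 3 arrays had clear signal of Xist, the RNA of the inactive X chromosome of females: control replicate 3 (10.20), control replicate 4 (11.72) and daDREAM replicate 4 (11.51), against 6.10 to 6.49 on the other 5. These 3 arrays were unlike in Y-linked signal: Eif2s3y was at 8.40 on control replicate 3, 7.16 on control replicate 4 and 4.46 on daDREAM replicate 4, against 8.74 to 9.04 on the other 5. The reason for this departure from the labels was not tested. Of 8 sensory neuron markers 7 were measured, none passed, and their summed level ran from 14.34 to 14.61 in control and from 14.42 to 14.55 in transgenic arrays. All 12 central nervous system markers had differences above 0, with Aqp4 alone passing, and their summed level was 12.66 to 13.44 in control and 13.50 to 14.05 in transgenic arrays. Gfap had the largest difference among them (1.585, limma adjusted p = 0.066). The groups did not overlap for 3 of them (Aqp4, Calb1 and Gfap), against 10.7% of all genes. A limma p under 0.05 before adjustment was met by 7 of them and by 18.2% of all genes. The 6 muscle markers all had differences below 0 and none passed. Their summed level was 9.27 to 10.996 in control and 9.20 to 9.31 in transgenic arrays, so the groups overlapped. That of 5 measured pituitary markers spanned 10.19 to 12.67 in control and 9.92 to 14.19 in transgenic arrays. Summed levels of glia markers (5 measured of 7) were 15.35 to 15.46 in control and 15.50 to 15.54 in transgenic arrays, without overlap. Of these 5 markers, 3 had differences above 0 and 2 below, the largest in Fabp7 (0.42, limma adjusted p = 0.217). Summed blood markers overlapped, at 8.70 to 9.57 in control and 9.24 to 9.58 in transgenic arrays. No gene of either list passed. Kcnip3 itself, at its brightest probe set, differed by 0.03 on the log2 scale without passing. Whether that probe set reads RNA of the transgene was not tested. In whole ganglia, fewer cells of a type and less RNA per cell cannot be told apart. The calls among the 10 genes are therefore also given without the 3 arrays with the most Xist. Where a call ends, values are also given without the arrays with the most Gh (pituitary), Gabra6 (cerebellum) or Acta1 (muscle), or with the lowest Gfap. Gfap was counted here with the central nervous system markers, and which cells gave its signal was not tested. The arrays with the most Gh were control replicate 3 and daDREAM replicates 3 and 4. Those with the most Gabra6 were control replicate 2 and daDREAM replicates 1 and 3. Those with the most Acta1 (control replicates 1 and 3) and with low Gfap (control replicates 1 and 4) were control arrays only. Without the latter pair Gfap read 10.20 and 10.22 in control against 10.77 to 11.24 in transgenic arrays, so its levels stayed unequal.

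Among the 10 genes, Dbp and Ciart fell and Nfil3 rose in transgenic ganglia, and the other 7 did not pass. A gene passed at a limma adjusted p under 0.05, adjusted over all genes tested; 2% of all genes passed, 0.984% as higher and 1.02% as lower. The groups did not overlap for 6 of the 10 genes, 2 higher (Nfil3 and Csnk1e) and 4 lower (Dbp, Tef, Ciart and Bhlhe40), against 10.7% of all genes (5% higher, 5.73% lower). An unadjusted p under 0.05 was met by 6 of the 10 and by 18.2% of all genes. The median size of the difference, without its sign, was 0.27 on the log2 scale over the 10 genes and 0.10 over all genes, while the signed medians were -0.045 and 0.00. The genes were chosen with results of these data in view, so the counts describe them and are no independent support. All differences below are transgenic minus control in log2 RMA values, with means ± SD of n = 4 arrays per group.

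**Figure D1:**
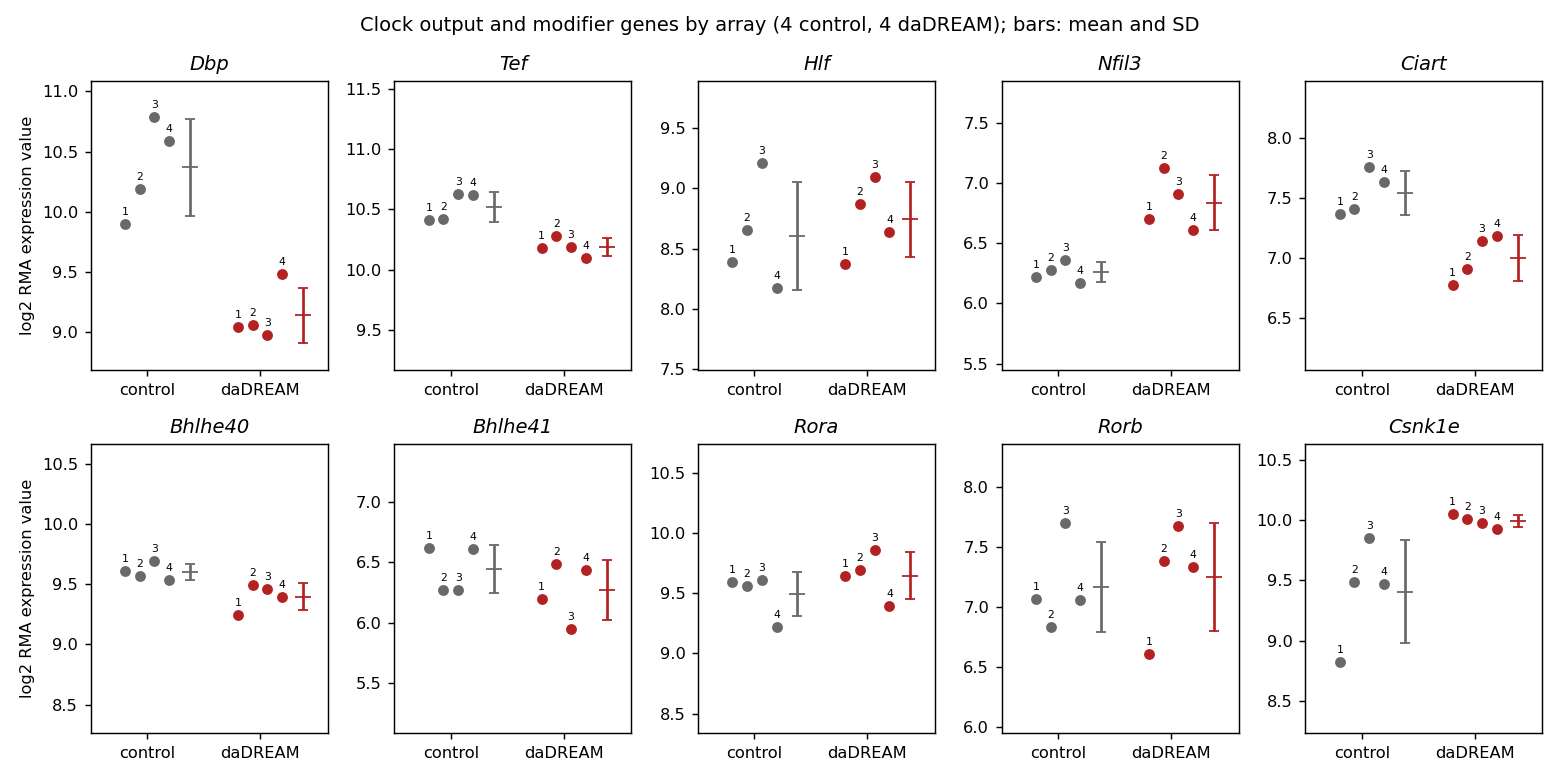
Log2 RMA expression value (y axis, each panel spanning the same 2.4 log2 units) of each gene's brightest probe set on the 4 control and the 4 daDREAM arrays. Points are arrays with their replicate number, and bars give the mean and SD. The points of Dbp, Tef, Ciart and Bhlhe40 lie lower and those of Nfil3 and Csnk1e higher in daDREAM, with no overlap between groups.

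Dbp is the PAR bZIP activator with the widest daily swing in many tissues. It read 9.90, 10.19, 10.79 and 10.59 on control replicates 1 to 4 and 9.04, 9.06, 8.98 and 9.48 on the transgenic ones. Every control array lay above every transgenic array. Dbp fell from 10.37 ± 0.40 to 9.14 ± 0.23, a difference of -1.23 (SE 0.18, 95% interval -1.62 to -0.84, limma adjusted p = 0.0037), which is 2.34-fold. By the exact two-sided permutation test over the 70 assignments of arrays, p was 0.0286, the smallest this design can give.

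The other probe set of Dbp read 8.76, 9.27, 9.82 and 9.47 in control and 8.15, 8.06, 8.30 and 8.40 in transgenic arrays. It too fell, by 1.10 (SE 0.18, adjusted p = 0.00566 over all probe sets, limma), and both probe sets ordered the control arrays alike, with replicate 1 lowest and replicate 3 highest. Without the arrays with the most Xist the difference at the brighter probe set was -1.02 (limma adjusted p = 0.00395). Leaving out the arrays with the most Gabra6 left 5 arrays and a difference of -1.16, and there the call ended (limma adjusted p = 0.16). An unequal-variance test per gene, in place of limma's shared spread, also ended it (adjusted p = 0.191).

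Tef and Hlf, the other PAR bZIP activators, did not pass. The brightest Tef probe set read 10.41, 10.42, 10.63 and 10.62 in control and 10.18, 10.28, 10.19 and 10.10 in transgenic arrays. These groups did not overlap, and the difference of -0.33 (SE 0.08, 95% interval -0.51 to -0.16) missed the threshold with limma adjusted p = 0.0622. It passed after renewed quantile normalization (-0.39, limma adjusted p = 0.0315) and with a variance prior that follows the mean (limma adjusted p = 0.0495). The difference read -0.20 (limma adjusted p = 0.328) without the arrays with the most Xist. For the mean of the 3 Tef probe sets it was -0.16 (limma adjusted p = 0.423). The size in Tef was thus under that in Dbp on the same scale; the difference between the 2 genes was not tested.

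A further Tef probe set, 1450184_s_at, read 7.79, 8.36, 8.86 and 8.68 in control arrays and only 8.45 to 8.52 in transgenic ones. Its control values straddled the transgenic ones, and the difference was 0.065 (limma adjusted p = 0.881 over all probe sets). The third lay near background, with means of 5.73 and 5.51, and differed by -0.22. Hlf read 8.39, 8.65, 9.21 and 8.17 in control and 8.37, 8.87, 9.09 and 8.64 in transgenic arrays. The groups overlapped widely (difference 0.14, 95% interval -0.32 to 0.59, limma adjusted p = 0.758), and the other Hlf probe set differed by -0.08. The sign at the brighter one turned to -0.19 without the arrays with low Gfap and to -0.01 without control replicate 4.

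Nfil3, the D-box repressor that opposes the PAR bZIP activators, rose. It read 6.22, 6.28, 6.36 and 6.17 in control and 6.70, 7.12, 6.91 and 6.61 in transgenic arrays. Its single probe set was dim but above a log2 value of 6, and no transgenic array reached down to the highest control array. The rise from 6.26 ± 0.08 to 6.84 ± 0.23 was 0.58 (SE 0.11, 95% interval 0.34 to 0.81, limma adjusted p = 0.0164), or 1.49-fold. The direction held under all 22 alternative settings, while the adjusted p went above 0.05 in 8 of them, to at most 0.272 without the arrays with the most Gabra6. Without control replicate 1 or daDREAM replicate 3 it came to 0.0575 and 0.0633, and without the arrays with the most Xist the difference was 0.66 (adjusted p = 0.0537). The call also ended without the arrays with the most Gh (adjusted p = 0.108) or Acta1 (0.111), without those with low Gfap (0.165) and with the unequal-variance test (0.266).

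Ciart, which represses CLOCK and BMAL1 activity, fell. It read 7.37, 7.41, 7.76 and 7.63 in control and 6.78, 6.91, 7.14 and 7.18 in transgenic arrays. The highest transgenic array lay below the lowest control array by less than the range within either group. The fall from 7.54 ± 0.18 to 7.0025 ± 0.19 was -0.54 (SE 0.11, 95% interval -0.79 to -0.29, limma adjusted p = 0.0343), or 1.45-fold. This call was the weakest of the 3: leaving out control replicate 3 or 4 or daDREAM replicate 1, 2 or 3 each gave an adjusted p above 0.05, between 0.0563 and 0.12. Without the arrays with the most Xist the difference was -0.45 (adjusted p = 0.14). The call further ended without the arrays with the most Gh (adjusted p = 0.091), Gabra6 (0.311) or Acta1 (0.145), without those with low Gfap (0.123) and with the unequal-variance test (0.234), so that 11 of the 22 alternatives ended it while all kept the direction.

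Bhlhe40 and Bhlhe41, the DEC repressors, did not pass. Bhlhe40 read 9.61, 9.57, 9.69 and 9.53 in control and 9.24, 9.49, 9.46 and 9.39 in transgenic arrays. Its groups did not overlap, but the gap between them was small, and the difference of -0.205 (95% interval -0.37 to -0.04) had a limma adjusted p of 0.204. Bhlhe41 read 6.62, 6.27, 6.27 and 6.61 against 6.20, 6.49, 5.95 and 6.44, and these groups overlapped (difference -0.17, 95% interval -0.46 to 0.11, adjusted p = 0.502). The dimmer Bhlhe41 probe set lay below 6 in both groups, at 5.72 and 5.68, so a change there could be missed.

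The nuclear receptors Rora and Rorb did not pass at any of their 12 probe sets. Rora, an activator of Arntl transcription, had 9 probe sets, 7 with a difference above 0 and 2 below, from -0.17 to 0.30. Its brightest read 9.59, 9.56, 9.61 and 9.22 in control and 9.64, 9.69, 9.86 and 9.39 in transgenic arrays. The replicates numbered 4 were lowest in both groups and the groups overlapped (difference 0.15, 95% interval -0.10 to 0.40, limma adjusted p = 0.507). It was 0.06 without control replicate 4 and 0.08 without daDREAM replicate 3. The widest difference among its probe sets, 0.30 at 1420583_a_at, had a limma adjusted p of 0.196 over all probe sets.

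Rorb, the paralogue known from retina, cortex and spinal cord, read 7.07, 6.83, 7.70 and 7.06 in control and 6.61, 7.38, 7.67 and 7.33 in transgenic arrays. The spread within each group was several times the difference of 0.08 (SE 0.22, limma adjusted p = 0.874), whose sign turned without control replicate 2 (-0.03), daDREAM replicate 3 (-0.06) or the arrays with low Gfap (-0.02). Rorb was highest on control replicate 3 and daDREAM replicate 3, as was Hlf in each group, and so was the astrocyte glutamate transporter Slc1a2, with 11.89 and 11.72. Of the other central nervous system markers, Gfap, Aqp4, Olig2 and Cbln1 were highest there too. In contrast, Gabra6, Cbln3, Pcp2, Neurod1 and Zic1 were highest on control replicate 2 and daDREAM replicate 1, and Calb1 and Zic2 followed neither order. The part of nervous system tissue in this spread was not tested.

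Csnk1e did not pass, and its pair of bright probe sets had differences of opposite sign. At 1417176_at, the brighter, it read 8.82, 9.49, 9.85 and 9.47 in control and 10.05, 10.01, 9.98 and 9.93 in transgenic arrays. The transgenic arrays lay close together and above all controls, among which replicate 1 was far lower. The difference was 0.585 (SE 0.17, 95% interval 0.22 to 0.96), or 1.50-fold, with limma adjusted p = 0.114, and it passed without control replicate 3 (0.73, adjusted p = 0.0343) or without the arrays with the most Acta1 (0.51, adjusted p = 0.0312). It was 0.39 without control replicate 1, 0.32 without the arrays with low Gfap and 0.08 for the mean of the 3 probe sets, none of which passed.

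At 1417175_at the values were 9.50, 9.32, 9.23 and 8.93 in control and 8.73, 8.86, 9.04 and 8.93 in transgenic arrays. Here control replicate 1 was the highest, and the difference was -0.36 (limma adjusted p = 0.139 over all probe sets), which passed without control replicate 4 (-0.46, adjusted p = 0.0319). The third, 1435373_at, differed by 0.01. The log2 ratio of the first to the second was -0.68, 0.17, 0.62 and 0.54 in control and 1.32, 1.15, 0.94 and 1.00 in transgenic arrays. The groups differed by 0.94 in this ratio (0.16 ± 0.59 against 1.10 ± 0.17, n = 4 each, exact two-sided permutation p = 0.0286), and by 0.66 without control replicate 1. The ratio was chosen after its values were seen, and the sources used here do not say which transcripts each probe set covers.

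**Figure D2:**
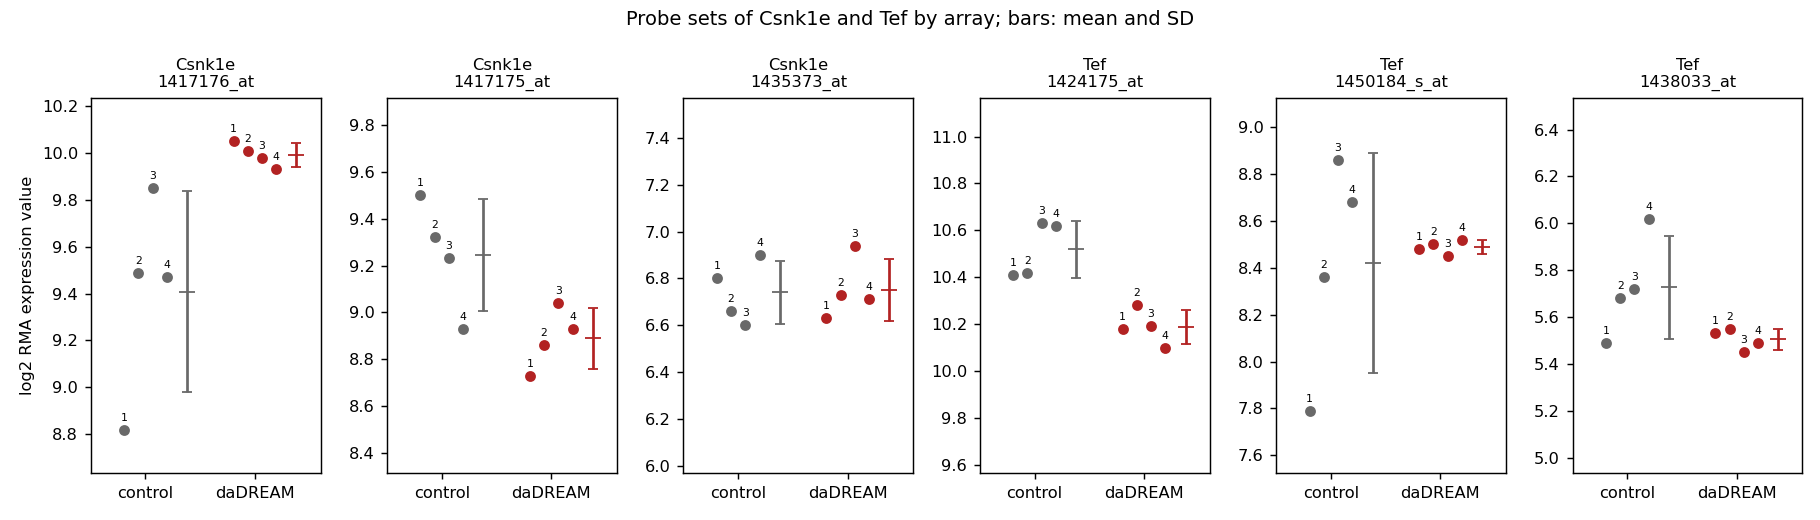
Log2 RMA expression value (y axis, 1.6 log2 units in each panel) of the 3 probe sets of Csnk1e and the 3 of Tef on the 4 control and 4 daDREAM arrays, numbered by replicate, with mean and SD. The means of Csnk1e are higher in daDREAM at 1417176_at and lower at 1417175_at, and for Tef the groups are separate at 1424175_at but overlap at 1450184_s_at.

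By probe set, 4 of the 27 passed over all 45037 probe sets, 1 higher (Nfil3) and 3 lower (both of Dbp and that of Ciart), where 2.74% of all probe sets passed, 1.42% as higher and 1.32% as lower. The groups did not overlap at 7 of the 27, against 11% of all probe sets (5.13% higher, 5.91% lower), and 18.5% of all probe sets had an unadjusted p under 0.05. Of the 27 differences 14 were above 0 and 13 below. For Dbp the probe sets moved together; for Tef, Hlf, Rora, Rorb and Csnk1e they had differences of both signs.

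**Figure D3:**
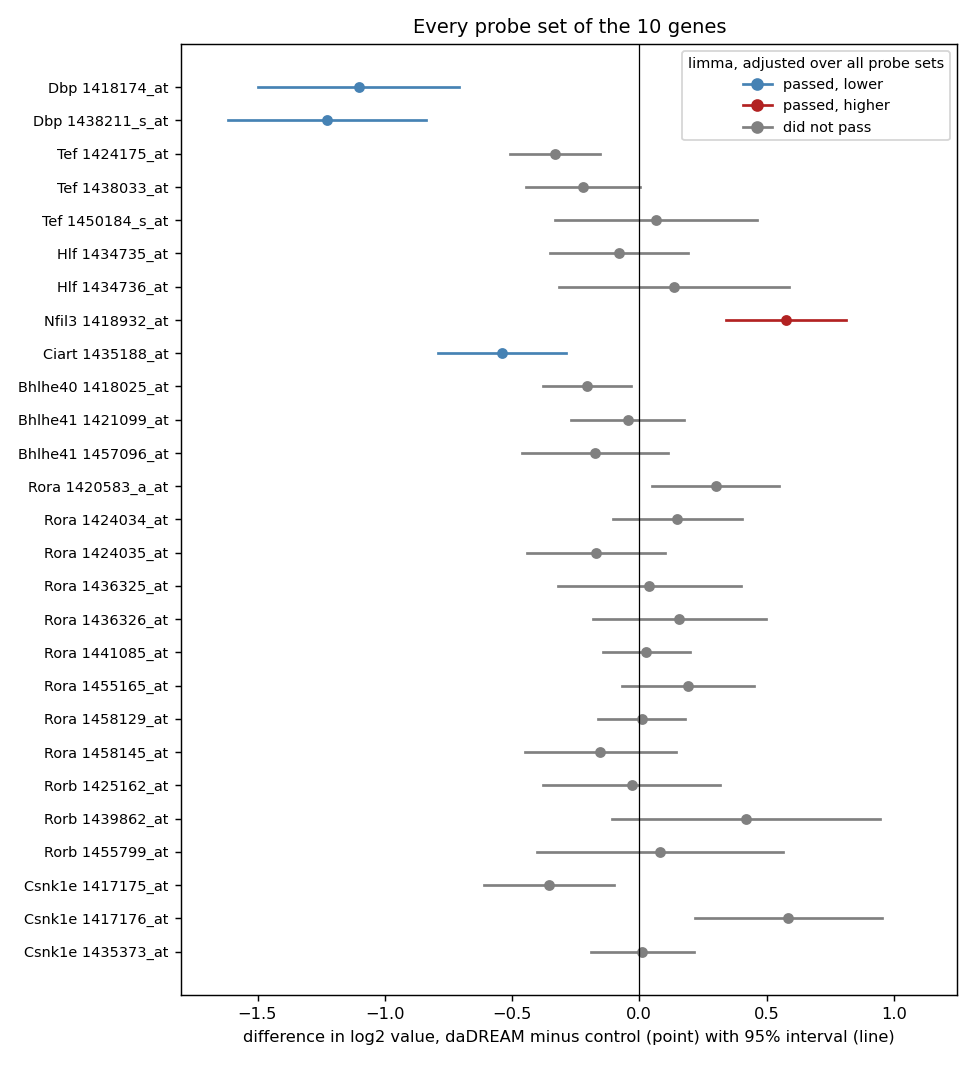
Difference in log2 RMA value, daDREAM minus control (x axis), for each of the 27 probe sets, with the 95% interval of the limma fit. Blue and red mark the 4 probe sets that passed over all 45037, and the intervals of Dbp, at -1.10 and -1.23, lie farthest from 0.

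The 10 core clock genes give the setting for these outputs. Arntl rose by 0.795 (limma adjusted p = 0.0113) and Per1 and Per2, the feedback repressors, fell by 0.615 and 0.755 (adjusted p = 0.0406 and 0.0173); the other 7 did not pass, and the list's median was -0.09. Without daDREAM replicate 1, 2 or 3 or control replicate 4 only Arntl passed in each case, and without the arrays with the most Gh or the most Gabra6 none did. At its other, dimmer probe set Arntl differed by -0.20 without passing. Per2 differed by -0.40 and by 0.065 at its other probe sets, neither of which passed. With the mean of a gene's probe sets the calls of Arntl (0.30, limma adjusted p = 0.119) and Per2 (-0.36, limma adjusted p = 0.0904) ended.

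Other clock modifiers and clock-driven genes showed no call. Of 15 measured further modifiers, such as casein kinases, ubiquitin ligase subunits and AMPK, 0 passed with limma and 0 with the unequal-variance test, while an unadjusted p under 0.05 was met by 2. Their median difference was -0.03. The smallest p belonged to Btrc, a ubiquitin ligase subunit that targets PER proteins (0.285, limma adjusted p = 0.235), and Timeless (0.23, adjusted p = 0.251). Of 11 measured genes that are rhythmic in many tissues or driven by PAR bZIP factors, 0 passed by limma, nor did any by the unequal-variance test, and 4 had a limma p under 0.05 before adjustment. Over all genes 2% passed by limma and 18.2% had a limma p under 0.05 before adjustment. In lists this short, 0 calls cannot be told apart from that share of 2%. Their median was 0.015, and the smallest p belonged to Fkbp5, a glucocorticoid-induced chaperone (-0.195, limma adjusted p = 0.17), and Tspan4 (-0.24, adjusted p = 0.178).

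Within groups, the array-to-array variation of Dbp was most like that of Per2 and Per3 among the 10 genes and the core clock genes. After subtracting each group's mean, the correlation of Dbp over the 8 arrays was 0.94 with Per2 (Spearman 0.90), 0.93 with Per3 (Spearman 0.80) and 0.77 with Ciart (Spearman 0.74). Without the 2 arrays on which Dbp lay farthest from its median the same values were 0.85, 0.86 and 0.50. Other pairs had correlations of like size: Dbp with Csnk1e at 0.73 (Spearman 0.38, and 0.77 without those 2 arrays). Dbp with Arntl came to -0.60 (Spearman -0.72, and -0.95 without them). Ciart with Per2 stood at 0.88 (Spearman 0.88) and with Rorb at 0.80 (Spearman 0.79). Without the 2 arrays on which Ciart lay farthest from its median these were 0.89 and 0.57. Correlations of this size were thus not confined to Dbp, Per2, Per3 and Ciart. These are descriptions over arrays that share a normalization. Per3 was chosen after its values were seen; its groups overlapped at the brightest probe set (-0.49, limma adjusted p = 0.091). It passed with the mean of its probe sets (-0.34, adjusted p = 0.0247), without control replicate 1 (-0.62, adjusted p = 0.0153) and without the arrays with low Gfap (-0.65, adjusted p = 0.0342). In control arrays all 4 genes were highest on replicate 3, an array with Xist, Gh and Acta1 signal, and the part of these in the shared pattern was not tested.

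**Figure D4:**
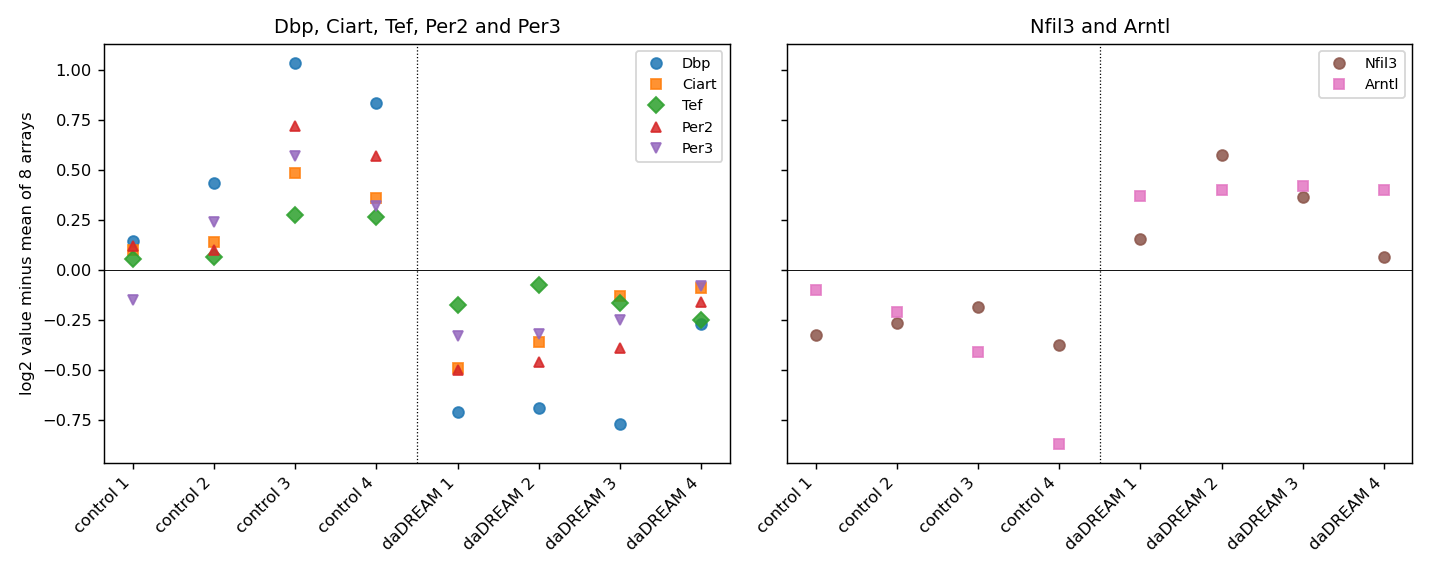
Log2 RMA value minus its mean over the 8 arrays (y axis) for each array (x axis), for Dbp, Ciart, Tef, Per2 and Per3 (left) and for Nfil3 and Arntl (right). Dbp, Ciart, Tef and Per2 lie above 0 on all control arrays and below 0 on all daDREAM arrays, Per3 does so but for control replicate 1, and Nfil3 and Arntl lie the other way.

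The genes most like each called gene by this centred correlation were others. For Dbp they were Hinfp, Grifin, Map3k3, Oma1 and Csnk2a2, with r from 0.98 down to 0.96 over 8 arrays. For Nfil3 they began with Mrap2 and C430002N11Rik (both 0.99) and for Ciart with Tnmd and Fam81a (both 0.99). None of the 15 genes so found passed the test between groups. They are the highest of 18193 values each and describe these arrays only.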

How the data were processed

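RNA of 8 trigeminal ganglion samples was hybridised to Affymetrix mouse whole-genome arrays. The deposited log2 values are RMA values that the authors computed in affy, per the submitters' processing notes; the sources used here give neither its version nor the probe set definitions. RMA corrects background, equalises the arrays' distributions and combines probes by median polish, which removes any shift shared by most genes. Array medians ran from 7.09 to 7.13, no 2 arrays were identical, and correlations between arrays were 0.983 to 0.996. The number of arrays limits the precision.

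Of 45101 probe sets, 64 Affymetrix controls were left out; 34945 had 1 symbol, 932 several and 9160 none. Groups were taken from the titles. Each gene's brightest single-symbol probe set, and separately every probe set, went into a limma fit (version 3.58.1, R 4.3.3; lmFit, eBayes, group as only term, two-sided) with Benjamini-Hochberg adjustment over all genes or all probe sets. The test was checked on simulated data with independent noise for each gene, which held no variation shared by the genes of an array. A mean below a log2 value of 6 was called near background. Single values were compared by exact permutation.

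The genes, gene lists and alternatives were chosen with earlier results of these data known. Named genes are the 10 genes, members of the other lists that passed or else the 2 with the smallest p, the 5 most correlated genes of each called gene, Kcnip3, and markers that move with a result; Per3, Npas2, Sgk1 and Tsc22d3 were added after their values were seen. Alternatives were the replicate number as a block, 2 other normalizations, a filter at a log2 value of 6, 3 other variance models or weights, 2 other ways to represent a gene, and each array left out in turn. The omission of arrays by Xist, Gh, Gabra6, Acta1 or Gfap was added after seeing the data. Plots used matplotlib 3.10.9 and Python 3.11.15. The arrays name no genome build, and the promoter coordinates are those of the RefSeq table. Some listed genes are not reported here.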

Additional observations from a re-analysis of the deposited data

Results flagged for a closer look

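A single array stood apart from the other 3 of its group, by Dixon's test at the 95% level, in 6 of the 54 combinations of probe set and group among these genes, where chance flags about 1 in 20. For Dbp, daDREAM replicate 4 read 9.48 at the brighter probe set against 9.06 on the next array; this array also had Xist and the most Gh. For Rora, control replicate 4 was low at 1424034_at (9.22, next 9.56) and at 1436325_at (6.98, next 7.63). Also for Rora, daDREAM replicate 3 was high at 1424035_at (7.09, next 6.70) and at 1458145_at (6.89, next 6.53). For Bhlhe41, daDREAM replicate 3 read 5.87 at the dim probe set 1421099_at, against 5.63 on the next array.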

How the results depend on the processing

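The differences of Dbp, Tef, Nfil3, Ciart, Bhlhe40, Rora and Csnk1e kept their sign under all 22 alternatives; Bhlhe41 came to 0 in 1 of them, without the arrays with low Gfap. Signs turned only in differences that did not pass with all arrays: Hlf (0.34 without control replicate 3, -0.0075 without control replicate 4, -0.19 without the arrays with low Gfap), Rorb (0.295 without daDREAM replicate 1, and -0.0292, -0.0583 and -0.0175, as given above), Npas2 at its brightest probe set (-0.14 without the arrays with most Gabra6, -0.0125 with most Acta1) and Tef at 1450184_s_at (-0.0019 after renewed quantile normalization, 0.21 without control replicate 3, -0.15 without control replicate 1, -0.0325 and -0.12 without the arrays with most Acta1 and with low Gfap).

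The count of the 10 genes past the test, 3, ran from 1 to 3 when 1 array was left out, and that of their probe sets, 4, from 3 to 4. Leaving out the arrays with the most Xist, the most Gh or low Gfap gave 1 in each case, and 0 passed without those with the most Gabra6 in limma or with the unequal-variance test, where 5 genes in either case had an unadjusted p under 0.05. For their probe sets it was 2 without the arrays with most Gh or low Gfap, and 0 without those with most Gabra6 or by the unequal-variance test. Core clock genes, 3, ran from 1 to 4 when 1 array was left out; the count was 1 without the arrays with most Acta1, and 0 without those with most Gh, most Gabra6 or by the unequal-variance test. Over all genes 364 became 49 by the unequal-variance test and 213, 98, 79, 171 and 227 without the arrays with most Xist, Gh, Gabra6 and Acta1 and with low Gfap; it ran from 229 to 349 when 1 array was left out. Over probe sets 1236 became 166 by that test and 392, 288, 649 and 760 without the arrays with most Gh, Gabra6 and Acta1 and with low Gfap, and 755 to 1271 when 1 array was left out. With the mean of a gene's probe sets 1 other clock modifier passed. Fits that leave out arrays hold fewer samples; other causes of these changes were not tested.

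Nothing in the labels ties arrays of the same replicate number, and the numbers were not taken as pairs, since not every same-numbered pair of deviations correlated above 0.1 (0.209, 0.006, 0.331 and 0.36); as a hint from the data, 5 of 8 arrays correlated best with their own number. With the replicate block 672 genes and 2017 probe sets passed, as did 5 core clock genes, Per3 among them (adjusted p = 0.0326), and the same number of the 10 genes, 3.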

Other observations

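Further clock genes moved at probe sets that do not represent them. Npas2, the paralogue of Clock, rose at its dimmer probe set 1421037_at from 6.45 ± 0.10 to 6.94 ± 0.12 (difference 0.49, limma adjusted p = 0.00786 over all probe sets), with groups that did not overlap, while its brightest differed by 0.07. That call ended without the arrays with the most Xist (0.44, adjusted p = 0.101), the most Gh (adjusted p = 0.0975) or the most Gabra6 (adjusted p = 0.223) and with the unequal-variance test (adjusted p = 0.0981). For Per3, the period gene, 2 of 6 probe sets fell, 1421087_at (-0.72, limma adjusted p = 0.00675) and 1441445_at (-0.53, adjusted p = 0.0233), and 3 of the others had differences below 0 without passing (-0.49, -0.38 and -0.12) and 1 above (0.175). The call of 1421087_at ended without the arrays with the most Gh (adjusted p = 0.158), Gabra6 (0.0899) or Acta1 (0.05) and with the unequal-variance test (0.262). That of 1441445_at ended without the arrays with the most Xist (adjusted p = 0.0682), Gabra6 (0.357) or Acta1 (0.107), with the unequal-variance test (0.216), and without control replicate 2 or 3 or daDREAM replicate 1 or 2 (0.0556 to 0.0789).

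Sgk1 and Tsc22d3, genes induced by glucocorticoids, stood high on some of the control arrays on which Dbp was highest. Sgk1 read 10.68, 10.61, 11.46 and 11.59 in control and 10.40 to 10.75 in transgenic arrays, so control replicates 3 and 4 were apart, and its difference was -0.51 (limma adjusted p = 0.226) with all arrays and -0.07 without those with the most Xist. Tsc22d3 was highest on control replicate 4 (11.72), and its difference of -0.36 (limma adjusted p = 0.212) became -0.14 without those arrays.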
